A study of Mus musculus with 9 samples.

Results

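The transcripts of 9 chemoattractant receptor genes were followed in RAW264.7 cells, a mouse macrophage-like tumor cell line, out of 54532 genes with an FPKM value (fragments mapped to the gene, scaled by gene length and library size). The genes were picked by name, and they were Fpr1, Fpr2, C5ar1, C3ar1, Ptafr, Ccr1, Ccr2, Ccrl2 and Cx3cr1. Fpr2 entered the set because of its lower value in LPS + G-CDs than in LPS cells, so its values are given as a description, with no test in any comparison. The study asked how G-CDs, carbon dots made from the plant Glycyrrhiza that mimic superoxide dismutase, act on cells exposed to bacterial lipopolysaccharide (LPS). There were 3 groups with 3 libraries each, all of wild-type RAW264.7 cells. The control group was untreated, the LPS group received 1 μg/ml LPS, and the LPS + G-CDs group received this LPS dose together with 400 μg/ml G-CDs. The treatments lasted 6 h, and the labels give no time for the control cells. The treatment label of the G-CDs libraries names only LPS, so their group was taken from the sample titles and the G-CDs dose from the description of the design. No group received G-CDs without LPS, so an effect of G-CDs on resting cells was not measured. Nothing in the labels says that the libraries of a group came from separate cultures, and p-values measure only the spread between these libraries, which may be technical.

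Chemoattractant receptors are G protein-coupled receptors with which phagocytes sense gradients of microbial or host signals. The formyl peptide receptors bind N-formylated peptides shed by bacteria and mitochondria, the complement receptors bind the anaphylatoxins C5a and C3a, the platelet-activating factor receptor binds a lipid, and the chemokine receptors bind small secreted proteins. Most of them couple to Gi proteins, whose released beta and gamma subunits activate phosphoinositide 3-kinase gamma and phospholipase C beta, while receptor kinases, arrestins and RGS proteins turn the signal off. LPS acts on macrophages through Toll-like receptor 4 and is known to alter the expression of several of these receptors.

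Fpr1 and Fpr2 lie back to back on chromosome 17 of GRCm38. Fpr1 is at chr17:17876471-17883940 on the minus strand, Fpr2 is at chr17:17887824-17893952 on the plus strand, and 3884 bases separate their starts. Their upstream sequences are shown because the transcripts of both genes were nearly absent from control cells and present with LPS, and those of Ccrl2 and C3ar1 because LPS raised these genes and their sequences hold motif matches. Each sequence is the 250 bases before the RefSeq start (GRCm38.p6), 5′ to 3′ on the strand of the gene. Capitals mark matches, on either strand, to GGG and CC with 5 bases of any kind between them (the NF-kB type), TGANTCA (the AP-1 type) or GAGGAA (a core bound by PU.1, the macrophage lineage factor).
Fpr1, chr17:17883940-17884189, minus strand: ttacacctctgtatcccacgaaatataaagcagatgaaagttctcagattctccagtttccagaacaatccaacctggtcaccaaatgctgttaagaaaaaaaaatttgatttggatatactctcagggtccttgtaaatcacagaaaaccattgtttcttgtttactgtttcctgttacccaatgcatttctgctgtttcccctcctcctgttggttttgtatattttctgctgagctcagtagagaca
Fpr2, chr17:17887574-17887823, plus strand: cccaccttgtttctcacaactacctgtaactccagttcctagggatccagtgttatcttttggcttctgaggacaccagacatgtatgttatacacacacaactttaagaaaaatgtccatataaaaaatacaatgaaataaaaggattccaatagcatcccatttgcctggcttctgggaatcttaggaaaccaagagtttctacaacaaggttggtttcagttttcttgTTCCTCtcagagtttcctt
Ccrl2, chr9:111057519-111057768, minus strand: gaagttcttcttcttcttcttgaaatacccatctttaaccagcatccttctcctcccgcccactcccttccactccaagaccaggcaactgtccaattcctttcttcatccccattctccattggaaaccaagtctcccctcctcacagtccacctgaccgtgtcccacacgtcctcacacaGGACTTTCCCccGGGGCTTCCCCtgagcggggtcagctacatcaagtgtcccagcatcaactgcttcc
C3ar1, chr6:122856158-122856407, minus strand: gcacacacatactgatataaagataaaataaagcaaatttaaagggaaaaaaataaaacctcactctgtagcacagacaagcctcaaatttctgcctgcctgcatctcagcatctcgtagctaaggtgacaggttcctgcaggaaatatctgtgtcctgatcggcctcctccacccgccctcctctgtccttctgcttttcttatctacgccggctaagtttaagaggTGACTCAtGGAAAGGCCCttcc
The Fpr2 sequence held 1 GAGGAA match on the opposite strand, 19 bases before the start, and the Fpr1 sequence held none of the 3 motifs. The Ccrl2 sequence, that of 1 of its 3 listed starts, held 3 NF-kB type matches, of which 2 overlap and the nearest began 55 bases before the start, and the sequences of the other 2 starts held none of the 3 motifs. The C3ar1 sequence held an AP-1 type match 22 bases and an NF-kB type match 14 bases before the start. Among 32851 RefSeq promoters of the same length, 45.8% held an NF-kB type match, 6.749% an AP-1 type match and 23.25% a GAGGAA match, and a match describes the sequence only. Of the other receptors, Cx3cr1 held 1 NF-kB type match, Ccr1 held 1 NF-kB type and 1 GAGGAA match, Ptafr held 1 GAGGAA match, and C5ar1 and Ccr2 held none.

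The libraries held 14752400 to 17312255 reads on genes. The library size used in the FPKM values differed from these reads, and by group. It was 1.11 to 1.14 times the reads in control, 0.929 to 0.936 times in LPS and 0.880 to 0.980 times in LPS + G-CDs libraries. How it was set is not given in the sources used here. The labelled cell type was checked against 10 macrophage marker genes, which all passed the filter described below, and their summed level was 2664 to 3661 FPKM in control, 3875 to 4092 in LPS and 3252 to 5345 in LPS + G-CDs libraries. None of 9 neutrophil, 9 lymphocyte, 6 dendritic cell and 8 fibroblast or epithelial markers passed it. The neutrophil markers summed to 0.346 to 0.965 FPKM in control, 0.637 to 1.21 in LPS and 1.22 to 2.33 in LPS + G-CDs libraries, with 5 of the 9 at 0 throughout. The dendritic cell markers summed to 0.126 to 0.355, 0.789 to 0.799 and 0.418 to 0.822 FPKM in the same groups. The 3 LPS libraries resembled each other more than the others did, with a median SD of log2(FPKM + 1) over genes of 0.0867 against 0.244 in control and 0.259 in LPS + G-CDs. In the 1442 longest well-expressed genes, the mean difference from the group mean on the log2 scale was 0.285 in LPS + G-CDs replicate 1, -0.278 in LPS + G-CDs replicate 3 and -0.242 in control replicate 3, beside 0.117 and 0.125 in the other control libraries and -0.027 to 0.015 in the LPS libraries. Mitochondrial genes took 0.277% of the reads in control replicate 1 and 1.11% to 2.14% in the other 8 libraries.

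Genes were tested where they reached at least 1 FPKM in at least 3 of the 9 libraries, which 11585 genes and 7 of the 9 receptors did. Fpr1 and Fpr2 reached it only in the LPS libraries, so that passing the filter already required a difference. Fpr1 was therefore tested in a fit without the filter, over every gene with a read, and C3ar1 and Ccrl2, which passed only through the LPS-treated groups, were checked in that fit. Ccr1 and Ccr2 did not reach it. Differences were fitted with limma on log2(FPKM + 1), so the fold change of a low gene is understated, and a gene was called at a Benjamini-Hochberg adjusted p under 0.05 over all genes tested. In bulk RNA, fewer cells with a transcript and less transcript per cell cannot be told apart.

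**Figure D1:**
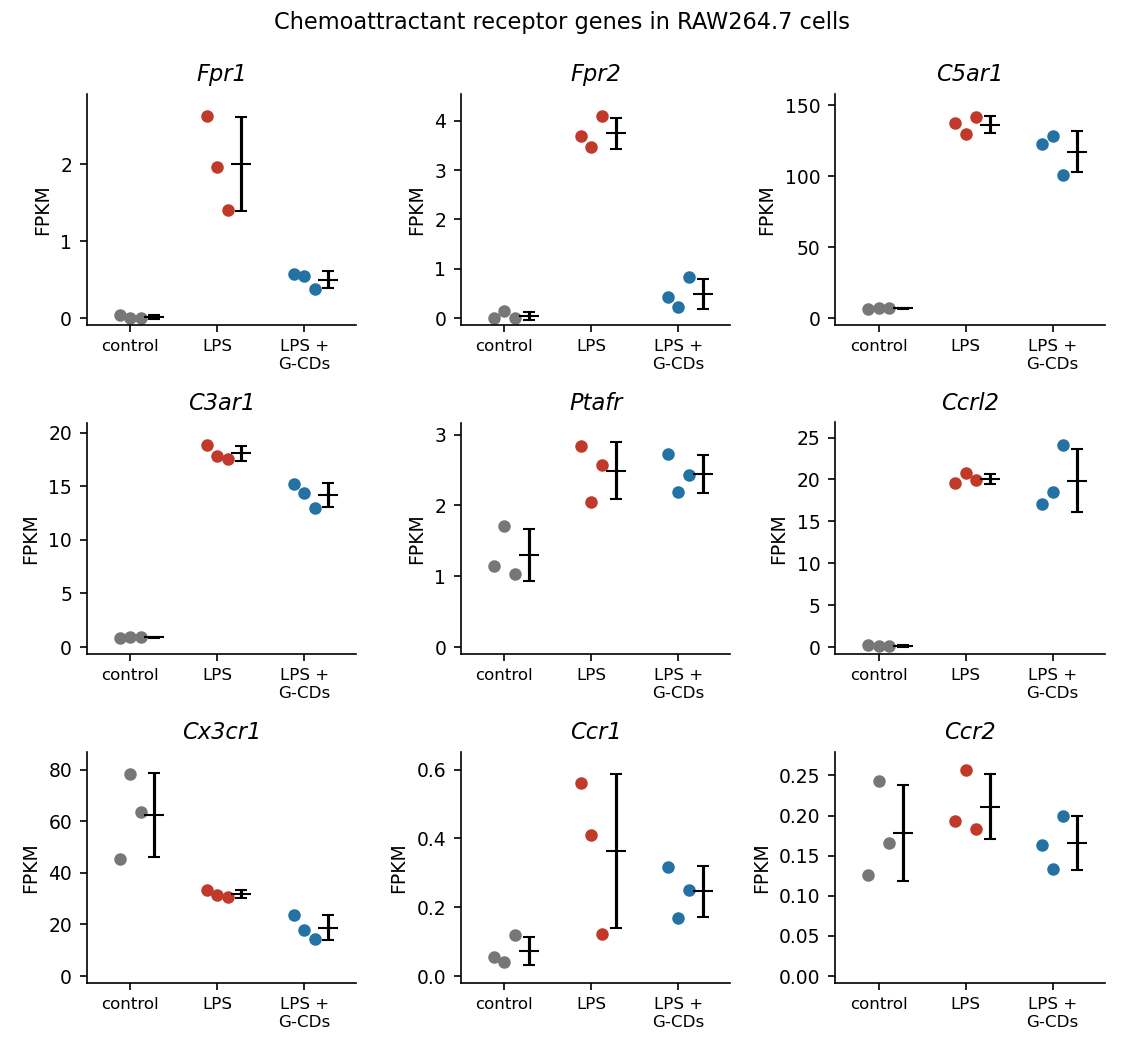
FPKM (linear axes from 0, 1 panel a gene) of the 9 receptor genes in control, LPS and LPS + G-CDs cells. Points are libraries in the order of replicates 1 to 3, and bars beside them are the mean ± SD (n = 3). Fpr1 and Fpr2 were high only in LPS libraries, C5ar1, C3ar1 and Ccrl2 were high in both LPS-treated groups, and Cx3cr1 was highest in control libraries.

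The formyl peptide receptor genes were close to the limit of detection in control cells. Fpr2, whose product binds formyl peptides as well as amyloid and annexin ligands, was at 0, 0.136 and 0 FPKM in the control libraries, 3.68, 3.47 and 4.09 in the LPS libraries, and 0.427, 0.232 and 0.824 in the LPS + G-CDs libraries. The 3 groups did not overlap, and the LPS + G-CDs libraries lay between the others. The group mean was 3.75 FPKM with LPS and 0.494 with LPS + G-CDs, or 13.2% of the LPS mean, and on the log2(FPKM + 1) scale the difference of -1.68 was the 10th largest fall of the 11585 genes. These values chose the gene and are no evidence beyond that choice.

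Fpr1 encodes the high-affinity formyl peptide receptor. It was at 0.0403, 0 and 0 FPKM in the control libraries, 2.62, 1.97 and 1.40 in the LPS libraries, and 0.575, 0.546 and 0.376 in the LPS + G-CDs libraries. Here too the groups did not overlap, and the LPS libraries had the widest spread (2.0 ± 0.61 FPKM, SD, n = 3). With LPS, Fpr1 rose by 1.55 on the log2(FPKM + 1) scale (SE 0.15, limma adjusted p = 0.000431 without the filter). Between LPS + G-CDs and LPS the log2 difference was -0.98 (SE 0.15, 95% interval -1.33 to -0.63, limma adjusted p = 0.0789 without the filter), which did not pass. Between LPS + G-CDs and control it was 0.56 (SE 0.15, limma adjusted p = 0.0562 without the filter), which did not pass either.

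Few reads stood behind either gene. The FPKM values could be turned back into whole reads, and Fpr2 had 0, 3 and 0 reads in the control libraries, 66, 62 and 77 in the LPS libraries, and 8, 5 and 15 in the LPS + G-CDs libraries. Fpr1 had 1, 0 and 0 reads in the control libraries, 48, 36 and 27 in the LPS libraries, and 11, 12 and 7 in the LPS + G-CDs libraries. Scaled by the library size of the FPKM values, the summed Fpr1 reads were 141-fold higher in LPS than in control (exact 95% interval 24.8 to 5622). They were 3.96-fold lower in LPS + G-CDs than in LPS (2.62 to 6.14) and 35.6-fold higher than in control (5.92 to 1454). These intervals cover counting error only, and a count of 0 allows up to 3 reads.

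**Figure D2:**
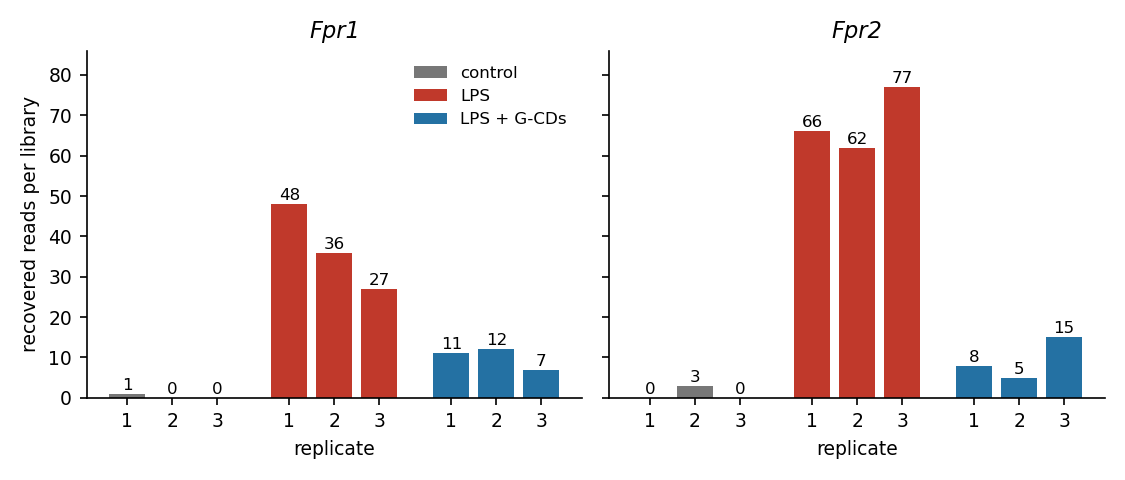
Reads per library (bars from 0, with their counts) of Fpr1 and Fpr2, recovered from the FPKM values, for replicates 1 to 3 of control, LPS and LPS + G-CDs. Every LPS library had at least 27 reads for Fpr1 and 62 for Fpr2, against at most 12 and 15 in the LPS + G-CDs libraries.

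Other genes of the family were not detected. Fpr3, which overlaps Fpr2 on the same strand, and Fpr-rs3, Fpr-rs4, Fpr-rs6 and Fpr-rs7 had 0 reads in all 9 libraries. Of the exonic bases of Fpr2, 48 of 1296 (3.70%) are also exonic in Fpr3, and 37.2% of the 50-base words of its longest transcript occur in other transcripts (Gm5966, Fpr3 and Fpr1). No gene named Gm5966 was found among the FPKM values, so the assignment of part of the Fpr2 reads is uncertain. For Fpr1 only 0.0784% of such words are shared, and none of its exonic bases lies in another gene.

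C5ar1 had the highest level of the set in both LPS-treated groups, and neither complement receptor gene was called with G-CDs. C5ar1, which encodes the receptor for C5a and lies at chr7:16246743-16259540, was at 6.24, 7.18 and 7.10 FPKM in the control libraries, 138, 129 and 142 in the LPS libraries, and 123, 128 and 101 in the LPS + G-CDs libraries. The mean was 6.84 ± 0.518 FPKM in control and 136 ± 6.19 FPKM in LPS cells (SD, n = 3). LPS thus raised C5ar1 by 4.13 on the log2 scale (SE 0.13, limma adjusted p = 6.0e-08). All LPS + G-CDs libraries lay below all LPS libraries, the nearest pair being 128 and 129 FPKM. The log2 difference was -0.22 (SE 0.13, 95% interval -0.51 to 0.07, limma adjusted p = 0.361), so it did not pass. Without LPS + G-CDs replicate 3 it was -0.12, and it was -0.39 both on TPM and after removal of the length trend described below.

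C3ar1, which encodes the receptor for C3a and lies at chr6:122847138-122856161, was at 0.867, 0.900 and 0.965 FPKM in the control libraries, 18.9, 17.8 and 17.5 in the LPS libraries, and 15.2, 14.3 and 13.0 in the LPS + G-CDs libraries. The groups did not overlap in any comparison. LPS raised C3ar1 by 3.32 on the log2 scale (SE 0.10, limma adjusted p = 5.8e-08). With G-CDs the log2 difference to LPS was -0.33 (SE 0.10, 95% interval -0.56 to -0.10), with an unadjusted limma p of 0.0103 and an adjusted p of 0.249. The mean with LPS + G-CDs was thus 78.6% of the LPS mean, a difference past the unadjusted threshold only. On TPM, where the median of all genes was -0.135, the log2 difference was -0.51 (limma adjusted p = 0.383).

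Ptafr, the platelet-activating factor receptor gene at chr4:132564067-132582683, changed less. It was at 1.14, 1.71 and 1.03 FPKM in the control libraries, 2.84, 2.05 and 2.57 in the LPS libraries, and 2.72, 2.18 and 2.43 in the LPS + G-CDs libraries. LPS raised it by 0.61 on the log2 scale (SE 0.15, limma adjusted p = 0.0162), but the call was lost with TPM (adjusted p = 0.117) and without control replicate 3 (0.0530), LPS replicate 1 (0.0714) or LPS replicate 3 (0.0598). The libraries of both LPS-treated groups were intermixed, with a log2 difference of -0.02 (95% interval -0.37 to 0.33, limma adjusted p = 0.960).

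Ccrl2 encodes an atypical chemokine receptor that binds chemerin and presents it without signaling through G proteins. The gene lies at chr9:111054486-111057519. It was at 0.205, 0.0904 and 0.0865 FPKM in the control libraries, 19.6, 20.7 and 19.9 in the LPS libraries, and 17.1, 18.5 and 24.1 in the LPS + G-CDs libraries. Control libraries held 10, 4 and 4 reads, against 704, 744 and 753 with LPS. LPS raised Ccrl2 by 4.23 on the log2 scale (SE 0.14, limma adjusted p = 7.1e-08), the largest log2 change among the receptors in this comparison. Both LPS-treated groups overlapped, the G-CDs group with the wider spread (19.9 ± 3.71 against 20.1 ± 0.585 FPKM, SD, n = 3), and the log2 difference was -0.03 (95% interval -0.34 to 0.28, limma adjusted p = 0.906). The gene for its ligand chemerin, Rarres2, was at or below 0.0273 FPKM in every library.

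Cx3cr1, the fractalkine receptor gene at chr9:119901616-120069879, was the only one of the 7 tested receptors of the set that was lower with LPS. It was at 45.6, 78.2 and 63.8 FPKM in the control libraries, 33.5, 31.3 and 30.7 in the LPS libraries, and 23.8, 18.0 and 14.4 in the LPS + G-CDs libraries. The groups formed 3 separate ranges, with the LPS + G-CDs libraries farthest from control. With LPS it fell by 0.92 on the log2 scale (SE 0.22, limma adjusted p = 0.0135), a call that was just lost without LPS replicate 3 (adjusted p = 0.0501). Control replicate 1 was the lowest control library, and without it the log2 difference was -1.13 (adjusted p = 0.00521). Between LPS + G-CDs and LPS the log2 difference was -0.76 (SE 0.22, 95% interval -1.27 to -0.25), with an unadjusted limma p of 0.00802 and an adjusted p of 0.232. Against control, Cx3cr1 in LPS + G-CDs cells fell by 1.68 on the log2 scale (SE 0.22, limma adjusted p = 0.000648). Its ligand gene Cx3cl1 did not exceed 0.203 FPKM in any library.

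Ccr1 and Ccr2, which encode receptors for inflammatory CC chemokines and monocyte chemoattractants, were barely detected. Ccr1, at chr9:123962124-123968692, was at 0.0565, 0.0415 and 0.119 FPKM in the control libraries, 0.562, 0.409 and 0.121 in the LPS libraries, and 0.317, 0.170 and 0.251 in the LPS + G-CDs libraries. The LPS libraries lay above the control libraries, but LPS replicate 3, with 5 reads, lay beside control replicate 3, with 6 reads, far below the 22 and 16 reads of the other LPS libraries. Ccr2, at chr9:124101950-124113557, was at 0.126, 0.243 and 0.166 FPKM in the control libraries, 0.193, 0.257 and 0.183 in the LPS libraries, and 0.164, 0.134 and 0.200 in the LPS + G-CDs libraries. All 3 groups of Ccr2 overlapped, with 15 to 28 reads per library. Fitted without the filter, neither gene was called in any comparison, and Ccr1 had a log2 difference of 0.33 between LPS and control (limma adjusted p = 0.104). The neighbouring Ccr3 and Ccr1l1 had 0 reads in all libraries.

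Of the 5 tested receptors other than Fpr1 and Fpr2, LPS against control called 4 higher and 1 lower, where 31.3% of the 11585 genes were called (15.8% higher and 15.6% lower). The fit without the filter called the same numbers of the 5, where 14.1% of all 25079 genes with a read were called (7.16% higher and 6.95% lower). In LPS + G-CDs against LPS, 0 of the 5 were called by limma, where 0.492% of all genes were called (0.250% higher and 0.242% lower). C3ar1 and Cx3cr1 had an unadjusted p under 0.05, which 15.2% of all genes had (8.04% lower). The voom fit on recovered reads also called 0 of the 5, and 0.388% of all genes. A threshold of unadjusted p under 0.01 and over 1.5-fold, which 2.49% of all genes passed, took Cx3cr1 of the 5. All 3 LPS + G-CDs libraries lay below all 3 LPS libraries for 3 of the 5 (C5ar1, C3ar1 and Cx3cr1), against 15.0% of all genes tested (27.9% were separated in either direction, 12.9% higher). In LPS + G-CDs against control, 4 of the 5 (C5ar1, C3ar1, Ptafr and Ccrl2) were called higher and Cx3cr1 lower, Ptafr not without the filter (adjusted p = 0.0638), where 25.3% of all genes were called (12.8% higher and 12.4% lower). The comparisons share libraries, so their values are not independent of each other.

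**Figure D3:**
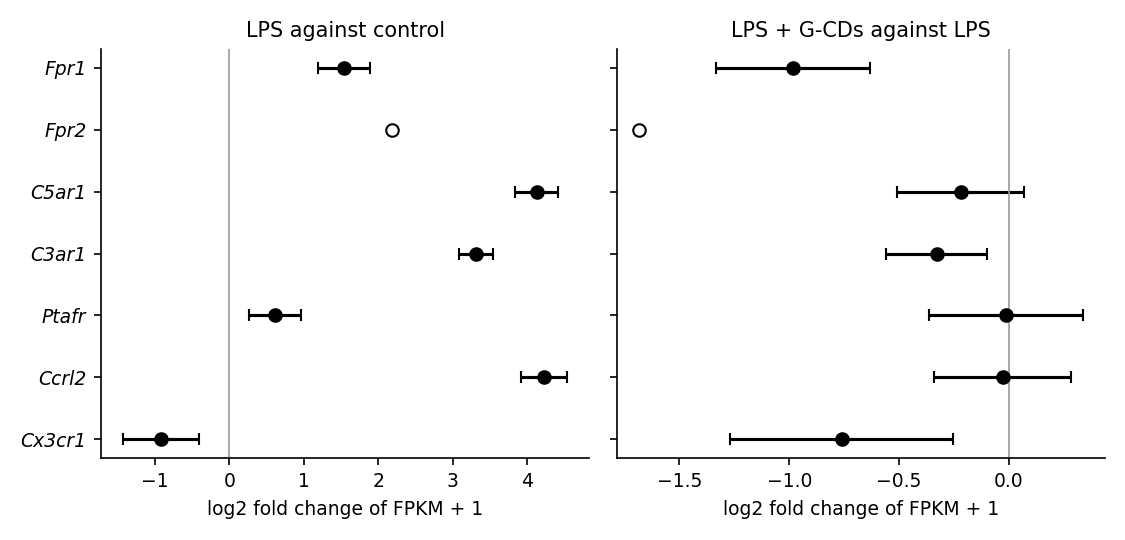
Log2 fold change of FPKM + 1 (horizontal axes, with different ranges) of the 7 tested receptor genes for LPS against control and LPS + G-CDs against LPS. Points with bars are limma estimates with their 95% intervals, with Fpr1 from the fit without the filter, and the open circles are Fpr2, given without an interval. In the second comparison the intervals of Fpr1, C3ar1 and Cx3cr1 lie below 0 and those of C5ar1, Ptafr and Ccrl2 span it.

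The order of the receptors by FPKM differed between groups. In control cells Cx3cr1 led at a mean of 62.5 FPKM, followed by C5ar1 at 6.84, Ptafr at 1.30 and C3ar1 at 0.911, each apart from the next, while Ccr2, Ccrl2, Ccr1, Fpr2 and Fpr1 overlapped with their neighbours in the order. In LPS cells C5ar1 led at 136 FPKM, ahead of Cx3cr1 at 31.8, Ccrl2 at 20.1, C3ar1 at 18.1 and Fpr2 at 3.75, each without overlap with the next. Ptafr and Fpr1 overlapped there, as did Ccr1 and Ccr2. In LPS + G-CDs cells C5ar1 led at 117 FPKM, Ccrl2 overlapped with Cx3cr1 and Cx3cr1 with C3ar1, Ptafr followed at 2.44 FPKM, and Fpr1, Fpr2, Ccr1 and Ccr2 formed a run of overlapping neighbours at the bottom.

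The tested genes whose log2(FPKM + 1) followed Fpr2 most closely over the 9 libraries were Has1 (Pearson r = 0.993), Ms4a6c (0.985), Mapk7 (0.979), Cp (0.962) and Fyn (0.958). Has1 and Cp, as Fpr1 and Fpr2, reached 1 FPKM only in the LPS libraries. For such genes the filter itself required a higher value with LPS, so their high r is partly built in. Has1, a hyaluronan synthase gene, had means of 0.0337, 1.34 and 0.212 FPKM in control, LPS and LPS + G-CDs cells, and Ms4a6c, a membrane protein gene, had 3.12, 11.5 and 4.10 FPKM. Fpr1 was the 21st, at r = 0.934, while C3ar1 stood at 0.727, C5ar1 at 0.696 and Cx3cr1 at -0.260. These correlations describe 9 libraries that fall in 3 groups and share their depth.

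**Figure D4:**
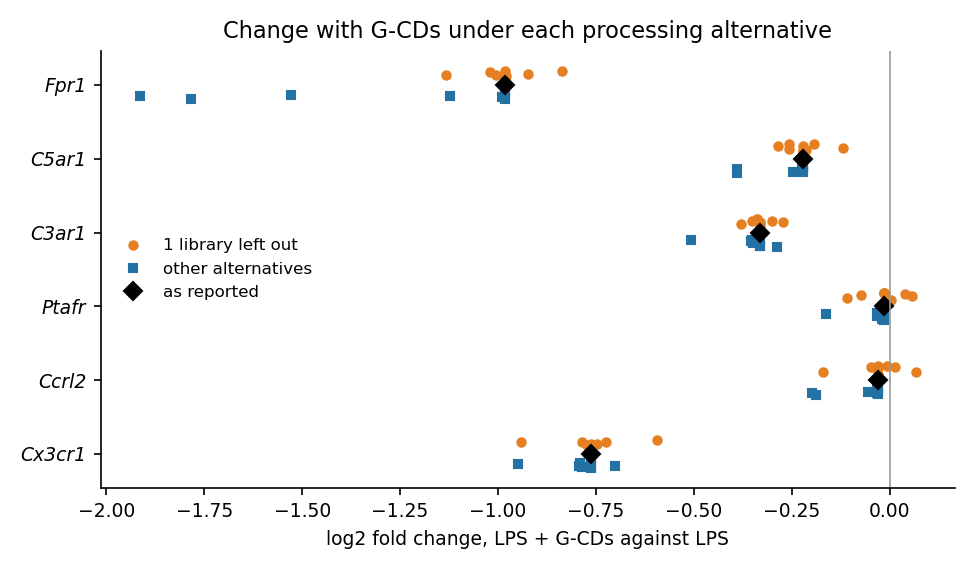
Log2 fold change in LPS + G-CDs against LPS of the 6 receptor genes other than Fpr2, under each processing alternative. Diamonds are the reported values, circles are fits with 1 library left out and squares are the other alternatives. Among them are a log2 scale with a smaller added value and the voom fit on recovered reads, in which the low Fpr1 reaches -1.91. Fpr1, C5ar1, C3ar1 and Cx3cr1 stayed below 0 throughout, and Ptafr and Ccrl2 lay on both sides of it.

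The libraries of the LPS + G-CDs group were not interchangeable for these genes. Fpr1, C5ar1, C3ar1 and Cx3cr1 were lowest in replicate 3, while Fpr2 and Ccrl2 were highest there. Replicate 3 was also the library lowest and replicate 1 the highest in the longest genes. With the trend of expression with gene length removed from each library, an alternative added after seeing the data, the log2 difference to LPS was -1.12 for Fpr1, -0.70 for Cx3cr1 (limma adjusted p = 0.180) and -0.29 for C3ar1 (0.181). Without LPS + G-CDs replicate 1 it was -1.02 for Fpr1, -0.94 for Cx3cr1 (limma adjusted p = 0.0549) and -0.38 for C3ar1 (0.0674).

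Of 31 other chemoattractant receptor genes listed, 12 were at 0 in every library and 3 were tested. Cxcr3, a receptor for interferon-induced chemokines, fell by 0.83 on the log2 scale with LPS (SE 0.22, limma adjusted p = 0.0204). There, 15.6% of all genes were called lower, and the Cxcr3 call was lost in 5 of 19 alternatives, with adjusted p-values up to 0.0794. Cxcr5, the receptor for the lymphoid chemokine Cxcl13, was 0.81 higher in LPS + G-CDs than in control cells (SE 0.17, limma adjusted p = 0.00827). That comparison called 12.8% of all genes higher. Without the filter, 1 of the 19 with a read was called higher with LPS and 0 lower, so Cxcr3 was not called. All genes with a read were called higher in 7.16% and lower in 6.95% there. In LPS + G-CDs against control the fit without the filter called 2 of the 19 higher and 0 lower, where 1342 and 1353 of 25079 genes were. None of the 3 was called in LPS + G-CDs against LPS, where 0.492% of all genes were called, and Cxcr5 differed by 0.31, Cxcr3 by 0.30 and Ccr10 by -0.22.

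Of 25 listed genes for the ligands, or for enzymes that make or degrade them, 15 were tested, of which 4 reached 1 FPKM only in LPS-treated libraries, so the counts are given from the fit without the filter. There, LPS raised 12 and lowered 2 of the 21 with a read, where 7.16% of all genes were called higher and 6.95% lower. Ccl5 and Ccl3, ligands of Ccr1 among other receptors, rose by 8.72 and 8.0, Ccl2, the ligand of Ccr2, by 5.36, and Saa3, a serum amyloid A gene, by 4.48 on the log2 scale (SE 0.24, 0.39, 0.19 and 0.32, limma adjusted p at most 1.13e-05, and at most 0.000102 without the filter). With G-CDs added to LPS, 0 of the 15 were called (0.492% of all genes were), with 8 negative and a median of -0.03. Saa3 went from 34.0 ± 5.63 to 12.7 ± 7.25 FPKM (SD, n = 3) without being called.

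Among 26 tested of 31 genes that relay the receptor signal, LPS raised 5 and lowered 2, where 15.8% of all genes were called higher and 15.6% lower, and the counts were 5 and 2 without the filter. The Src-family kinase genes Fgr and Lyn rose by 2.20 and 1.56, and Pik3r5, a regulatory subunit of phosphoinositide 3-kinase gamma, by 1.36 on the log2 scale (SE 0.12, 0.11 and 0.13, limma adjusted p at most 6.69e-05). Fgr was the 1 gene of the list called in LPS + G-CDs against LPS, where 0.492% of all genes were called. It was at 5.12, 6.07 and 5.81 FPKM in control, 31.9, 28.1 and 29.1 in LPS, and 17.5, 16.6 and 14.1 in LPS + G-CDs libraries, and the groups did not overlap. Fgr fell by 0.85 on the log2 scale with G-CDs (SE 0.12, limma adjusted p = 0.0239), and the call was kept in 11 of 19 alternatives, with adjusted p-values from 0.00910 to 0.166. It was lost with TPM, with the 6 libraries of the comparison alone, without any 1 of the 3 LPS libraries, without control replicate 2 and without LPS + G-CDs replicate 2 or 3. Of the 26 genes, 19 had a negative difference, with a median of -0.31 beside 0.02 over all genes tested, and 25 were not called. Against the mean of the LPS libraries, the median over the 26 was -0.16 in LPS + G-CDs replicate 1, -0.26 in replicate 2 and -0.42 in replicate 3. Genes with a negative difference numbered 21, 21 and 17. The libraries had the same order in the longest genes, and whether gene length is the cause was not tested. The median of the fitted differences was -0.17 with 24 negative without replicate 3, and -0.10 with 21 negative with the gene-length trend removed. On TPM it was -0.50 with 24 negative, beside -0.14 over all genes tested.

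Among 12 tested of 14 genes that end the signal, LPS raised 3 and lowered 5, beside the same shares of all genes (15.8% and 15.6%). Of the 12, only Rgs1 reached 1 FPKM only in LPS-treated libraries, and the counts were also 3 and 5 without the filter. Rgs16 and Rgs1, which speed up GTP hydrolysis by G protein alpha subunits, rose by 5.00 and 1.87, whereas Rgs14 fell by 1.90 and Arrb1, the gene for beta-arrestin 1, fell by 1.51 on the log2 scale (SE 0.13, 0.12, 0.18 and 0.24, limma adjusted p at most 0.00137, and at most 0.00513 without the filter). With G-CDs added to LPS, 0 of the 12 were called (0.492% of all genes were), and the median difference was 0.01.

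**Figure D5:**
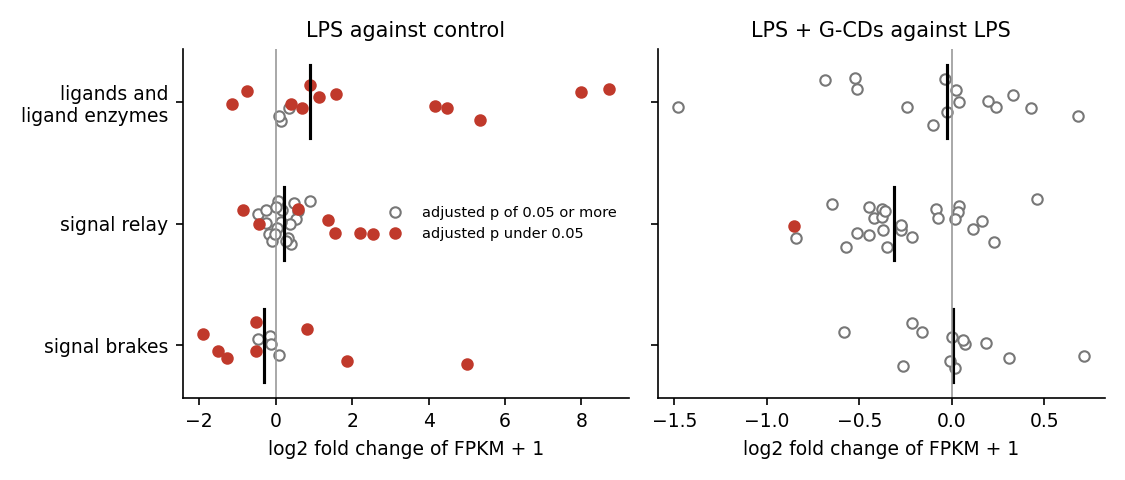
Log2 fold change of FPKM + 1 (horizontal axes, with different ranges) of each tested gene for ligands and ligand enzymes (15 genes), signal relay (26) and signal brakes (12), for LPS against control and LPS + G-CDs against LPS. Filled points have a limma adjusted p under 0.05, open points do not, and vertical bars are list medians. Filled points are spread over both sides of 0 with LPS, and the only one with G-CDs is Fgr at -0.85.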

How the data were processed

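RNA-seq was performed on poly-A RNA from 9 RAW264.7 libraries (3 groups, 3 libraries each) on an Illumina platform. The authors deposited FPKM values per gene and library with gene coordinates and lengths. Their processing notes name GRCm38 and mm10, and the aligner, counter and test are not given in the sources used here. All columns were mapped to samples by name. The coordinates of all 9 receptors equal those of GENCODE M21.

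FPKM × length gave whole reads (within 0.05 of a read), which were used for counting intervals and for a voom alternative. Genes with at least 1 FPKM in at least 3 libraries were tested with limma 3.58.1 in R 4.3.3 (log2(FPKM + 1), 1 model for the 3 groups, eBayes with trend, two-sided, Benjamini-Hochberg). Fpr1, which passed this filter only through the LPS libraries, is reported from the same fit over all genes with a read. The fit was run on simulated reads with the same spread in every group and no gene-length trend. It called 77% of 100 genes changed 2-fold and 98% of 100 changed 4-fold, and 4.89% of its calls were false. All groups were simulated from the LPS levels, so unequal spread and genes near 0 reads in control, such as Fpr1, were not covered. Python 3.11.15, pandas 2.3.3 and matplotlib 3.10.9 were used for the rest. Promoters came from RefSeq, and proteins were not analysed here.

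The receptors, the lists of other genes and the tests were chosen with earlier results of these data known. Of each list, counts and at most the 4 largest called changes are named, and for Fpr2 the 5 genes of highest Pearson r. Some items that this rule covers are not reported here. Rarres2, Cx3cl1, Ccr10 and the uncalled Saa3 and Cxcr5 values were added after their values were seen.

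The labels leave the meaning of the replicate numbers open. Once group means were subtracted, control and LPS libraries with equal numbers had correlations of 0.103, 0.137 and 0.113. Each exceeds 0.1, the limit for taking them as paired. The reported tests of LPS against control do not use this pairing, and the replicate block, which does, is given as an alternative. Alternatives covered pseudocounts, filters, scalings, models, the replicate block and leaving out 1 library.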

Additional observations from a re-analysis of the deposited data

How the results depend on the processing

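Fpr1, Fpr2, Ccr1 and Ccr2 had at most 77 reads in any library, and the size of difference that can be detected at such counts was not tested. In LPS + G-CDs against LPS, 57 of all genes tested were called. The number was 288 with unadjusted p under 0.01 and over 1.5-fold, 25 with a pseudocount of 0.1, 27 with TPM, 25 with the 6 libraries of the comparison, 103 with the gene-length trend removed (added after seeing the data), and 11 to 256 with 1 library left out, the highest without LPS + G-CDs replicate 1 and the lowest without LPS + G-CDs replicate 2. Without control replicate 2 it was 23, without LPS replicate 1, 2 or 3 it was 14, 12 or 21, and without LPS + G-CDs replicate 3 it was 29. Receptors other than Fpr2 called there numbered 0, but 2 with the unadjusted threshold (Fpr1 and Cx3cr1), 1 without the variance trend (Fpr1), 1 with the gene-length trend removed (Fpr1), and 0 to 1 with 1 library left out (Fpr1 without LPS + G-CDs replicate 1). Fpr1 passed the filter only through the LPS libraries, so its calls here carry no weight. In LPS + G-CDs against control, 2927 genes were called, 1789 with the 6 libraries of the comparison, and 1914 to 3245 with 1 library left out, the lowest without LPS + G-CDs replicate 2. The small differences of Ptafr and Ccrl2 between LPS + G-CDs and LPS turned sign when 1 library was left out, from -0.109 to 0.0579 for Ptafr (positive without LPS replicate 1 or 3 or LPS + G-CDs replicate 2) and from -0.169 to 0.0674 for Ccrl2 (positive without LPS + G-CDs replicate 1 or 2). The Ptafr call in LPS + G-CDs against control was lost in 6 of 19 alternatives, with adjusted p up to 0.238. TPM moved the median log2 difference of all genes to -0.232, -0.135 and -0.376 in LPS against control, LPS + G-CDs against LPS and LPS + G-CDs against control, and turned the split of LPS against control from 1827 higher and 1803 lower to 1003 and 3059, and that of LPS + G-CDs against control from 1488 and 1439 to 761 and 3218. Relative to those shifts the receptors kept their directions. The stricter filter, a mean of at least 2 FPKM, left Fpr1 and Fpr2 without a value. The cause of these differences was not tested.

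The replicate block gave 4104, 53 and 3347 genes called in the same order and changed no call of a receptor. Same-numbered LPS + G-CDs and LPS libraries correlated at 0.0950, 0.0801 and 0.143, and LPS + G-CDs and control libraries at 0.280, 0.0575 and 0.653, so these libraries were not taken as paired.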
